A study of Mus musculus with 6 samples.

Results

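The Myc family and its Max network were followed in mouse embryonic stem (ES) cells after acute loss of the miRNA-processing enzyme Dicer. The network was taken as 10 genes, namely Myc, Mycn, Mycl, Max, Mxd1, Mxd3, Mxd4, Mxi1, Mnt and Mga, and all 10 were found among the 18193 genes that the array names singly. They were represented by 27 of 34945 probe sets, the short oligonucleotide sets that each measure a transcript. The Dcr KO group was Dicer flox/flox ES cells transfected with GFP and Cre recombinase, and the Dcr WT group was the same flox/flox cells transfected with GFP alone. RNA was taken 5 days after transfection, with 3 arrays in each group, which the methods describe as biological triplicates of a polyclonal population. By then the paper describes most cells as Dicer null and most miRNAs as lost, so the loss was not stated to be complete. The cells were of a single floxed line, grown on gelatin with serum and LIF, and no group received Cre without the deletion, so that Cre and Dicer loss cannot be told apart. All values below are the log2 expression that the authors deposited, and a gene's value is the mean log2 of its probe sets.

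Myc, Mycn and Mycl are transcription factors that bind DNA only as partners of Max, at a short motif called the E-box, where they favour growth, ribosome synthesis and cell division. Mxd1, Mxd3, Mxd4, Mxi1 and Mnt compete for Max and recruit corepressors to the same sites, and Mga is a large Max partner that also belongs to a Polycomb complex. In ES cells Myc and Mycn are known for sustaining self-renewal and for activating miRNA clusters, while let-7 miRNAs are known to repress Myc family transcripts. Dicer cuts the precursors of nearly all miRNAs, including the miR-290 cluster that dominates ES cells. The study's list of candidate targets of that cluster, chosen in part for a rise on these arrays, contains Mycn and Mxd1 among the 10 members, so the direction of these 2 genes is not independent evidence. Mature miRNAs of the cluster (5) are printed because they share the AAGUGC sequence on which that list rests (RefSeq, GRCm38.p6, chromosome 7; capitals mark the seed, bases 2 to 8). They are not the whole set of the cluster with this sequence, to which miR-292a-3p also belongs.
mmu-miR-291a-3p: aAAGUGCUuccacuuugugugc
mmu-miR-294-3p: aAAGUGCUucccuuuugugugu
mmu-miR-295-3p: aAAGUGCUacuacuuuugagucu
mmu-miR-290a-3p: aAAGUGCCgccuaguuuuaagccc
mmu-miR-291b-3p: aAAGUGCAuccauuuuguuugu
The first 3 have the same seed, AAGUGCU, while the seeds of the other 2, AAGUGCC and AAGUGCA, differ from it in the last base. The miRNAs themselves were not measured on these arrays.

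The deletion was visible in Dicer1. Its brighter probe set had log2 levels of 6.39, 6.76 and 5.95 on the Dcr KO arrays, against 8.29, 8.51 and 7.82 on the Dcr WT arrays. Its dimmer one was also lower on all Dcr KO arrays but did not pass (adjusted p = 0.0908 from limma over probe sets). On that probe set the groups lay close, with 6.41 on Dcr KO replicate 2 and 6.49 on Dcr WT replicate 3. The position of these probe sets within the floxed region was not analysed here. Of 10 markers of ES cells all were expressed and none was called higher or lower. The summed linear level of these markers lay between 33960 and 34730 in Dcr KO, against 30294 to 33257 in Dcr WT. Summed over 5 neural markers it was 714 to 843 in Dcr KO and 419 to 523 in Dcr WT, with Tubb3 and Neurod1 called higher and the defining neural markers Sox1 and Pax6 below the expression minimum in both groups. Nes was tested and not called. Neurod1 is in the study's candidate list, so its direction is not independent evidence. Over 7 fibroblast markers the summed level was 114 to 131 in Dcr KO and 89.0 to 115 in Dcr WT, with Acta2 called higher and Col1a2, Col3a1, Thy1 and Fap below the minimum. Col1a1 and Pdgfrb were tested and not called. No marker of primitive endoderm, primitive streak or trophectoderm was called. Of those on the array, only 1 of 6, 2 of 4 and 3 of 5, respectively, were above the minimum and tested. The part of these shifts in the results that follow was not tested. In bulk RNA, fewer cells of a type and less RNA per cell cannot be told apart.

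Across the network, Max was the only member that changed significantly, and it rose. Of the 10 members, 8 had a mean log2 level of at least 4 (16 on the linear scale, the level that the study calls expressed) and were tested with limma among 8782 genes. Of these 8, 1 was higher, 0 were lower and 7 did not pass at an adjusted p under 0.05, against 6.91% of all genes tested called higher, 6.42% called lower and 13.3% called either way. At an unadjusted p under 0.05 there were 2 members (Max and Mycn), against 32% of all genes. The Dcr KO values lay entirely above the Dcr WT values for 3 of the 8 tested members (Max, Mycn and Mga), against 17.7% of all genes tested, and for none did they lie entirely below, against 21.2% (38.9% of all genes in either direction). For Mga this held for the gene value, while both of its probe sets above the minimum overlapped. The difference was positive for 7 of the 8, against 47% of all genes, with a median of 0.23 on the log2 scale, where the median over all genes tested was -0.02. By the study's own rule of 1.2-fold, 4 of the 8 were up, against 18.1% of all genes, and 0 were down, against 22%. Of 27 member probe sets 13 were above the minimum, and 3 of these had all Dcr KO values above all Dcr WT values, against 16.8% of all probe sets. Mxd1 and Mxd4 were below the minimum and are described by their values. With 3 arrays on each side, the smallest two-sided p that exact permutation of one gene allows is 0.1, so the tests rest on limma's model across genes.

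**Figure D1:**
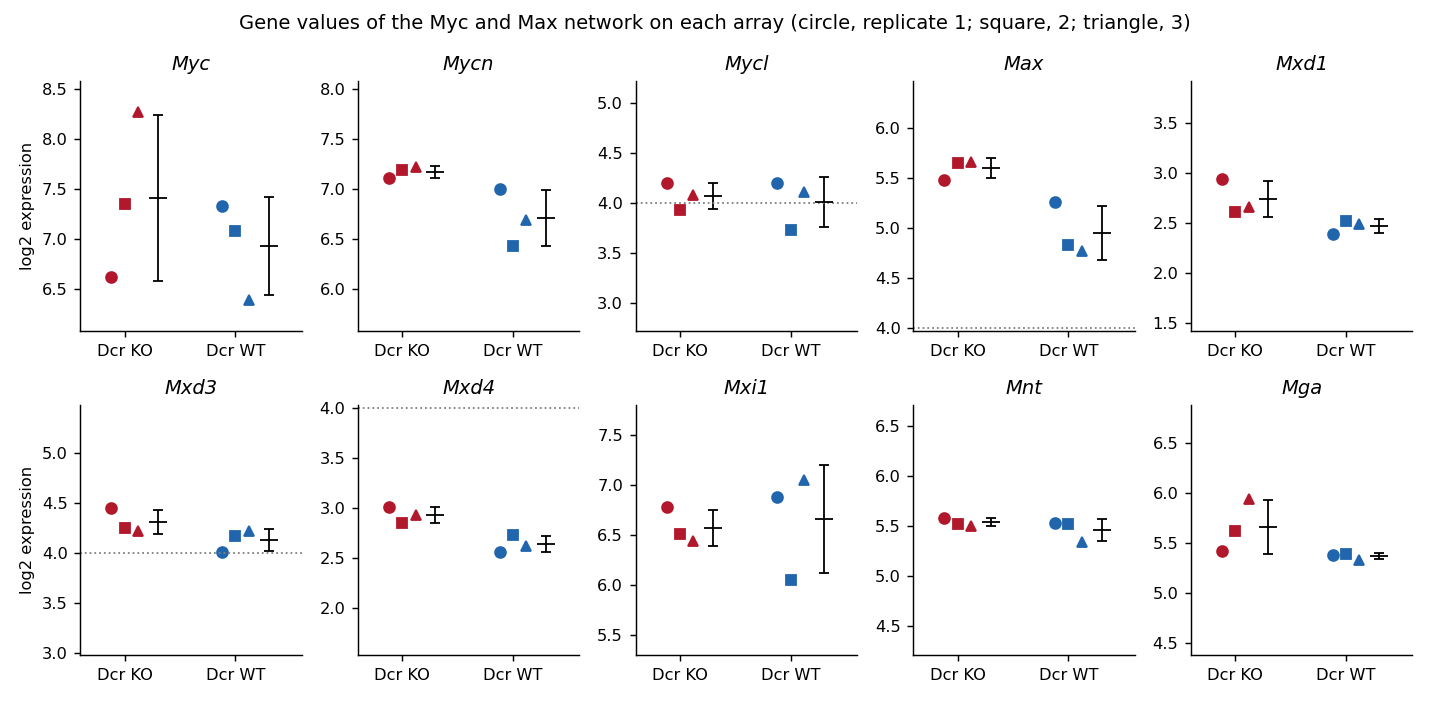
Log2 expression of each of the 10 network genes on every array, Dcr KO to the left and Dcr WT to the right (points, 1 per array; horizontal tick and bar, mean and SD, n = 3; every panel spans the same log2 range; dotted line, the minimum of 4). The 3 Dcr KO points of Max, at 5.48 to 5.66, lie above all Dcr WT points, while those of Myc are spread from 6.62 to 8.27 and overlap with Dcr WT.

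Max encodes the partner that the other proteins of the network share. On its single probe set (1423501_at) it had log2 levels of 5.48, 5.65 and 5.66 on the Dcr KO arrays, against 5.26, 4.83 and 4.77 on the Dcr WT arrays. Every Dcr KO array was above every Dcr WT array, and Dcr WT replicate 1 was the closest. The mean was 5.60 ± 0.10 in Dcr KO and 4.95 ± 0.27 in Dcr WT (SD, n = 3 each), a 1.56-fold rise. The log2 difference was 0.64 with a standard error of 0.15 (limma, adjusted p = 0.0305 over all genes). The 95% interval of the difference ran from 0.30 to 0.98. Fitted among 18789 single probe sets, where 7.75% were called higher or lower, the same values gave an adjusted p of 0.0553 from limma, so that the call depends on testing genes and not probe sets. The call also ended when any of Dcr KO replicates 2 and 3 and Dcr WT replicates 2 and 3 was left out (up to an adjusted p of 0.0957 from limma), although the difference stayed between 0.55 and 0.80 with any single array left out. Max is not among the study's candidate targets.

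The promoter of Max contains the E-box that Myc and Max themselves recognise. The letters CACGTG, which read the same on both strands, were searched in 300-base windows that RefSeq's promoter table sets around transcript starts, mostly upstream. Of the 9 members matched (all but Myc), 3 contained it in any of their promoters, namely Max, Mxd4 and Mnt, against 8.09% of 27025 genes counted the same way. The share was 7.15% of 32851 single promoters of the same length. Among 7215 genes tested here that have an entry it was 12.8%, although Mxd1 and Mxd4 were not tested. The 3 matches are printed because the member that rose and the dim member whose best probe set was higher (Mxd4) are among them (GRCm38.p6; gene strand, E-box in capitals).
Max, chr12:76962234-76962263, minus strand: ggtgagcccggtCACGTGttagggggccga
Mxd4, chr5:34187912-34187941, minus strand: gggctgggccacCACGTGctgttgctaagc
Mnt, chr11:74830789-74830818, plus strand: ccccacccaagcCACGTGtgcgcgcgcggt
The motif begins 3 bases upstream of the table's start in Max, 219 in Mxd4 and 123 in Mnt. RefSeq's gene spans of Max and Mnt begin farther upstream than these starts, so the distance depends on the start used. These are matches of letters and not measured binding sites, and Mnt, with the same letters, did not pass the test.

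Mycn was higher on all Dcr KO arrays but did not pass the test. Mycn encodes N-Myc, which can replace Myc in ES cells. Its gene values were 7.11, 7.19 and 7.22 on the Dcr KO arrays, against 7.00, 6.43 and 6.69 on the Dcr WT arrays. The groups did not overlap, but Dcr WT replicate 1 lay close to the lowest Dcr KO array. The mean was 7.17 ± 0.06 in Dcr KO and 6.71 ± 0.28 in Dcr WT (SD, n = 3 each), a log2 difference of 0.47 (standard error 0.15, 95% interval 0.12 to 0.81, adjusted p = 0.0743 from limma). Without Dcr WT replicate 1 the difference was 0.61 and passed (adjusted p = 0.0401 from limma), and without any other array it did not (up to 0.178).

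The probe sets of Mycn differed in the size of the shift. The brightest (1417155_at) had log2 levels of 11.72, 11.94 and 11.76 in Dcr KO, against 11.56, 11.44 and 11.62 in Dcr WT, a difference of 0.27 with no overlap (standard error 0.12, adjusted p = 0.189 from limma over probe sets). A second (1425922_a_at) had 6.30, 6.44 and 6.88 in Dcr KO and 6.42, 4.98 and 5.43 in Dcr WT. On this probe set Dcr WT replicate 1 lay among the Dcr KO values, and its SD in Dcr WT was 0.74. Its difference of 0.93 (adjusted p = 0.156 from limma over probe sets) was the largest of the 13 member probe sets above the minimum, and most of the shift in the gene value of Mycn comes from it. The third probe set was dim, with means of 3.17 in Dcr KO and 2.97 in Dcr WT.

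Myc, the founding member, had the largest SD among the gene values of the 10 members in Dcr KO and, after Mxi1, in Dcr WT. Its single probe set (1424942_a_at) had log2 levels of 6.62, 7.35 and 8.27 on the Dcr KO arrays, against 7.33, 7.08 and 6.39 on the Dcr WT arrays. The groups overlapped, with the highest value in Dcr KO replicate 3, the lowest in Dcr WT replicate 3, and Dcr KO replicate 1 lower than 2 of the 3 Dcr WT arrays. The SD of 0.83 over the Dcr KO arrays was larger than that of 99.8% of the genes tested, and the SD of 0.49 over the Dcr WT arrays larger than that of 97.1%. The medians of these SDs over all genes tested were 0.13 in Dcr KO and 0.15 in Dcr WT. Many of those gene values are means of several probe sets, which can narrow the SD, while Myc has 1. Single probe sets of Mga (a dim one, SD 0.85 in Dcr KO), Mycn (0.74 in Dcr WT) and Mxi1 (0.95 in Dcr WT) spread more than Myc. The difference of Myc, 0.48 (standard error 0.41, 95% interval -0.46 to 1.42, adjusted p = 0.448 from limma), was smaller than its spread among the Dcr KO arrays. Without Dcr KO replicate 3 it was 0.05, and without Dcr KO replicate 1 it was 0.88, neither of which passed (adjusted p = 0.934 and adjusted p = 0.143 from limma). The direction of Myc was not resolved at this number of arrays.

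Mycl, which encodes L-Myc, overlapped between the groups. Its gene values were 4.20, 3.93 and 4.08 in Dcr KO and 4.20, 3.73 and 4.11 in Dcr WT, a log2 difference of 0.06 (95% interval -0.28 to 0.39, adjusted p = 0.809 from limma). Only 1 of its 3 probe sets was above the minimum, and this one ran the other way, with 6.29, 6.23 and 5.83 in Dcr KO and 6.50, 6.30 and 6.29 in Dcr WT. Its difference of -0.25 did not pass (adjusted p = 0.340 from limma over probe sets). The small positive value of the gene comes from the other 2 probe sets, which had differences of 0.26 and 0.16 at Dcr KO means of 3.29 and 2.80.

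**Figure D2:**
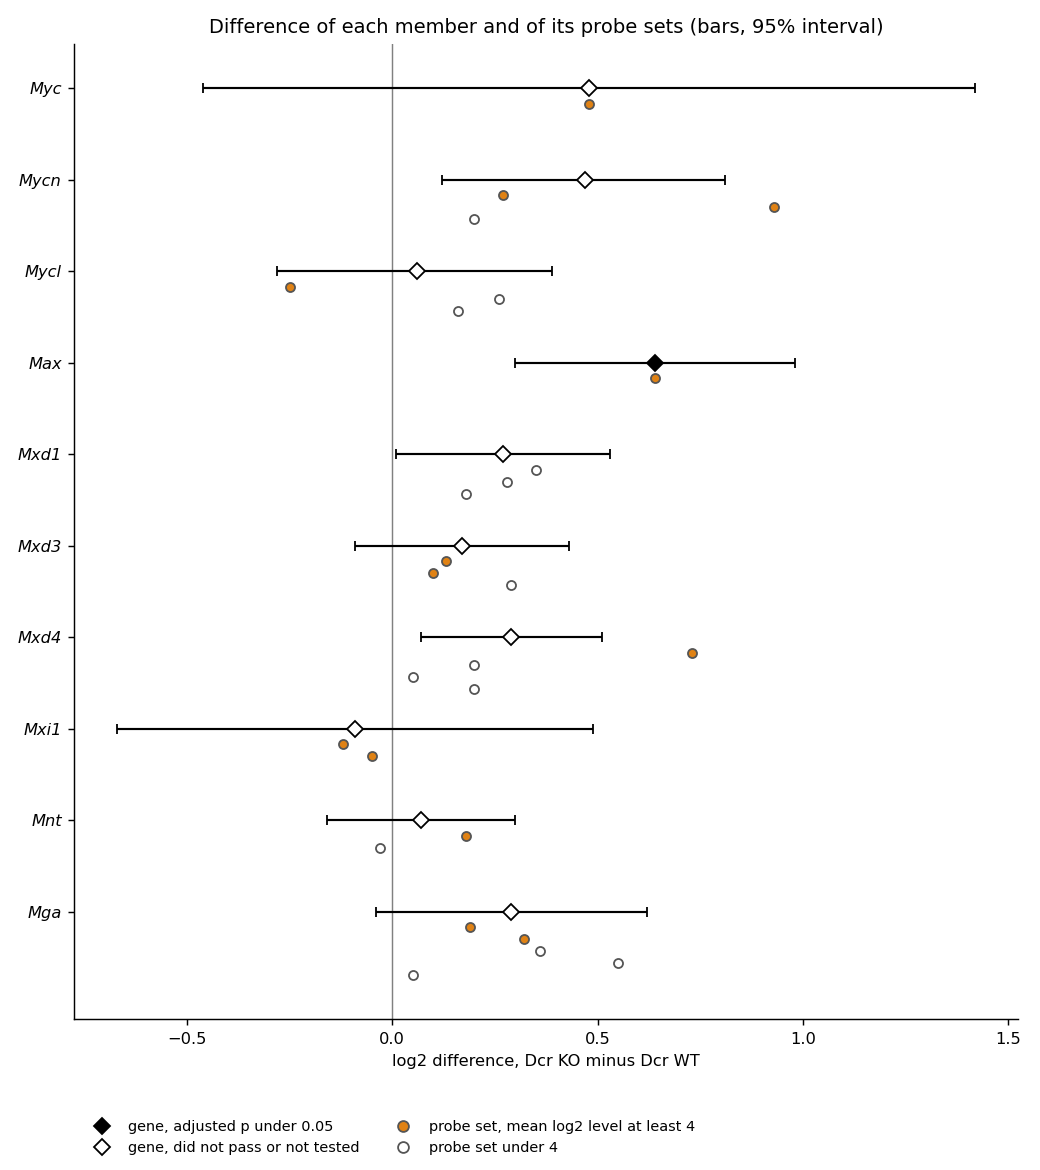
Each member's log2 difference between Dcr KO and Dcr WT, positive where Dcr KO is higher (diamonds; bars, 95% interval from limma; filled, adjusted p under 0.05) and of each of its probe sets (circles; filled, mean log2 level of at least 4). For Mxd1 and Mxd4, below the minimum, the interval is that of the fit without a minimum. Max alone is filled, at 0.64, and the brightest probe sets of Mycl and Mxd4 lie apart from their dimmer ones, at -0.25 and 0.73.

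The Mxd group, which antagonises Myc at shared sites, was mostly dim in these cells. Mxd1 had gene values of 2.94, 2.61 and 2.66 in Dcr KO and 2.39, 2.52 and 2.49 in Dcr WT, and each of its 3 probe sets was below the minimum. The groups did not overlap, with a difference of 0.27 (95% interval 0.01 to 0.53, adjusted p = 0.203 from limma without a minimum level), but on levels below those the study calls expressed. Yet Mxd1 is in the study's candidate list, which was limited to genes expressed on its wild type arrays. The source of this mismatch was not tested. Mxd3, which is linked to proliferating cells, had 4.45, 4.25 and 4.22 in Dcr KO and 4.01, 4.17 and 4.22 in Dcr WT. Its groups touched, and the difference of 0.17 did not pass (95% interval -0.09 to 0.43, adjusted p = 0.321 from limma).

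Mxd4 was carried by 1 probe set of 4. As a gene it was below the minimum, at 3.01, 2.85 and 2.93 in Dcr KO and 2.56, 2.73 and 2.62 in Dcr WT (log2 difference 0.29, adjusted p = 0.108 from limma without a minimum level). The probe set above the minimum (1434378_a_at) had 5.27, 4.71 and 4.73 in Dcr KO, against 3.98, 4.49 and 4.06 in Dcr WT. All Dcr KO values were higher, with a mean of 4.90 ± 0.32 in Dcr KO and 4.18 ± 0.27 in Dcr WT (SD, n = 3 each), a 1.65-fold difference. Over probe sets it missed the threshold (adjusted p = 0.0794 from limma), but with every gene of the array represented by its brightest probe set Mxd4 passed (log2 difference 0.73, adjusted p = 0.0459 from limma). The other 3 probe sets differed by 0.05 to 0.20, with means from 2.04 to 2.34 in both groups.

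Mxi1 and Mnt showed no difference beyond the spread of the arrays. Mxi1, also called Mxd2, had 6.78, 6.51 and 6.44 in Dcr KO and 6.88, 6.05 and 7.05 in Dcr WT. The Dcr WT arrays spanned 1.00 and enclosed all Dcr KO values, with a difference of -0.09 (95% interval -0.67 to 0.49, adjusted p = 0.830 from limma). The span came from its dimmer probe set, with an SD of 0.95 in Dcr WT against 0.14 in Dcr KO, while the brighter one differed by -0.12. Mnt, the broadly expressed antagonist of Myc, had 5.58, 5.52 and 5.50 in Dcr KO and 5.53, 5.52 and 5.34 in Dcr WT. Its SD was 0.04 in Dcr KO and 0.11 in Dcr WT, and its difference of 0.07 had an interval of -0.16 to 0.30 (adjusted p = 0.644 from limma). Its brighter probe set alone differed by 0.18 (adjusted p = 0.515 from limma over probe sets).

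The gene value of Mga was higher on each Dcr KO array, but not significantly. Its gene values were 5.42, 5.62 and 5.94 in Dcr KO and 5.38, 5.39 and 5.33 in Dcr WT. The 3 Dcr WT arrays lay within 0.06 of each other, and Dcr KO replicate 1 was only just above them. The difference of 0.29 (95% interval -0.04 to 0.62, adjusted p = 0.196 from limma) was 0.15 without Dcr KO replicate 3. Both bright probe sets of Mga, with Dcr KO means of 10.03 and 9.91 and Dcr WT means of 9.84 and 9.59, overlapped between the groups and differed by 0.19 and 0.32. Of the probe sets of Mga, only a dim one (1442356_at) did not overlap. It had 2.99, 3.44 and 3.49 in Dcr KO and 2.70, 2.68 and 2.90 in Dcr WT, a difference of 0.55. The widest spread was in another dim probe set (1422646_at) with 2.94, 3.57 and 4.63 in Dcr KO and 3.53, 3.48 and 3.06 in Dcr WT, again highest in Dcr KO replicate 3, as Myc was.

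The order of the arrays in Myc and Mycn was compared with that of every other gene tested, as a description over the 6 arrays. The genes most like Myc were Chmp5 (Pearson correlation 0.993), Slc35g1 (0.990) and Kif5c (0.973), in each of which Dcr KO replicate 3 was highest and Dcr KO replicate 1 lay within the Dcr WT range. Chmp5 followed this order within a narrow range, from 6.34 to 6.48. The genes most like Mycn were Chn1 (0.998), Fam91a1 (0.996) and Plagl1 (0.995), in all of which Dcr WT replicate 2 was lowest and Dcr WT replicate 1 the highest of its group. Among members, Max had a correlation of 0.943 with Mycn and Mga one of 0.882 with Myc, while Myc and Mycn had 0.488. The 6 arrays share the contrast of Dcr KO with Dcr WT, and the genes were picked as the highest of 8782.

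Genes that act with the network or downstream of it were taken from 8 lists. Between them 160 distinct genes were tested. In Dcr KO, 6 rose and 8 fell, against the 6.91% and 6.42% of all genes.

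Among partners and cofactors, Arrdc4 and Ruvbl2 were the genes called, where 13.3% of all genes tested were called in either direction. Of 4 tested genes of the parallel Mlx and Mondo branch, which senses glucose, 0 were higher and 1 was lower, Arrdc4, an arrestin-domain target of MondoA. Arrdc4 had 7.36, 7.27 and 7.21 in Dcr KO, against 7.76, 7.56 and 7.94 in Dcr WT (log2 difference -0.47, adjusted p = 0.0428 from limma), and with single arrays left out passed only without Dcr WT replicate 2 (highest 0.123, without Dcr KO replicate 2). The better known target Txnip, named after its value was seen, differed by -0.05. Of 16 coactivators of Myc, 0 were higher and 1 was lower, Ruvbl2, an ATPase of the TIP60 and INO80 complexes. Ruvbl2 had 10.84, 10.86 and 10.90 in Dcr KO and 11.38, 11.28 and 11.35 in Dcr WT (log2 difference -0.47, adjusted p = 0.0189 from limma). The gap between the groups was several times the spread within them, although the call ended when Dcr KO replicate 1, Dcr KO replicate 2 or Dcr WT replicate 3 was left out (up to 0.0765).

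None of 11 corepressors of the Mxd proteins, Mnt and Myc was higher or lower by limma, with 3 at an unadjusted p under 0.05, against 32% of all genes. Closest were Suds3, a subunit of the Sin3 complex (log2 difference -0.30, adjusted p = 0.0628 from limma), and the DNA methyltransferase Dnmt3a (0.30, adjusted p = 0.0997). With every gene represented by its brightest probe set, 2 corepressors were called lower, among them Suds3 (log2 difference -0.40, adjusted p = 0.0451 from limma). None of 9 partners of Mga in the E2F6 Polycomb complex was called by limma either, with 1 at an unadjusted p under 0.05, against the same 32%. Its 2 members with the smallest adjusted p were Wdr5, which is also a coactivator of Myc (log2 difference -0.29, adjusted p = 0.0978 from limma), and E2f6 (0.20, adjusted p = 0.188). Wdr5 passed with its brightest probe set (log2 difference -0.57, adjusted p = 0.0301 from limma).

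Of 19 genes of Myc protein turnover, 1 was higher and 1 lower, against 6.91% and 6.42% of all genes tested. Skp2, a ubiquitin ligase subunit that both degrades and assists Myc, had 9.20, 9.34 and 9.38 in Dcr KO and 8.95, 8.70 and 8.96 in Dcr WT (log2 difference 0.43, adjusted p = 0.0447 from limma). It is in the study's candidate list, and its call was lost whichever single array was left out (0.0656 to 0.138) and with its brightest probe set (log2 difference 0.29, adjusted p = 0.141 from limma). Pim3, a kinase whose relatives stabilise Myc, had 7.43, 7.12 and 7.08 in Dcr KO and 7.87, 7.65 and 7.85 in Dcr WT (log2 difference -0.58, adjusted p = 0.0270 from limma). Leaving out Dcr KO replicate 2 or 3 or Dcr WT replicate 1 or 3 ended this call (up to 0.0952). Without probe sets of the x_at and s_at kinds, which can match several transcripts, the log2 difference of Pim3 was -1.05 (adjusted p = 0.0160 from limma).

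Upstream of Myc, transcripts of both chains of the LIF receptor were higher. Of 24 regulators of Myc transcription or mRNA, 2 were higher (Lifr and Il6st) and 0 lower, against 6.91% and 6.42% of all genes tested. Lifr had 5.61, 5.59 and 5.53 in Dcr KO, against 4.73, 4.96 and 5.04 in Dcr WT (log2 difference 0.66 with a standard error of 0.11, adjusted p = 0.0119 from limma). Il6st, which encodes gp130, had 7.80, 7.87 and 8.12 in Dcr KO, against 7.38, 6.72 and 7.18 in Dcr WT (log2 difference 0.84 with a standard error of 0.18, adjusted p = 0.0250 from limma). Neither gene overlapped between the groups. Both are in the study's candidate list, so that their direction is not independent evidence. Lifr lost its call without Dcr KO replicate 2 (0.0518), and Il6st when Dcr KO replicate 2, Dcr KO replicate 3 or Dcr WT replicate 3 was left out (up to 0.0732). Of the signal transducers below the receptor, Jak1 (log2 difference 0.55, adjusted p = 0.0718 from limma) and Stat3 (0.19, adjusted p = 0.204) did not pass; these 2 were named after their values were seen.

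**Figure D3:**
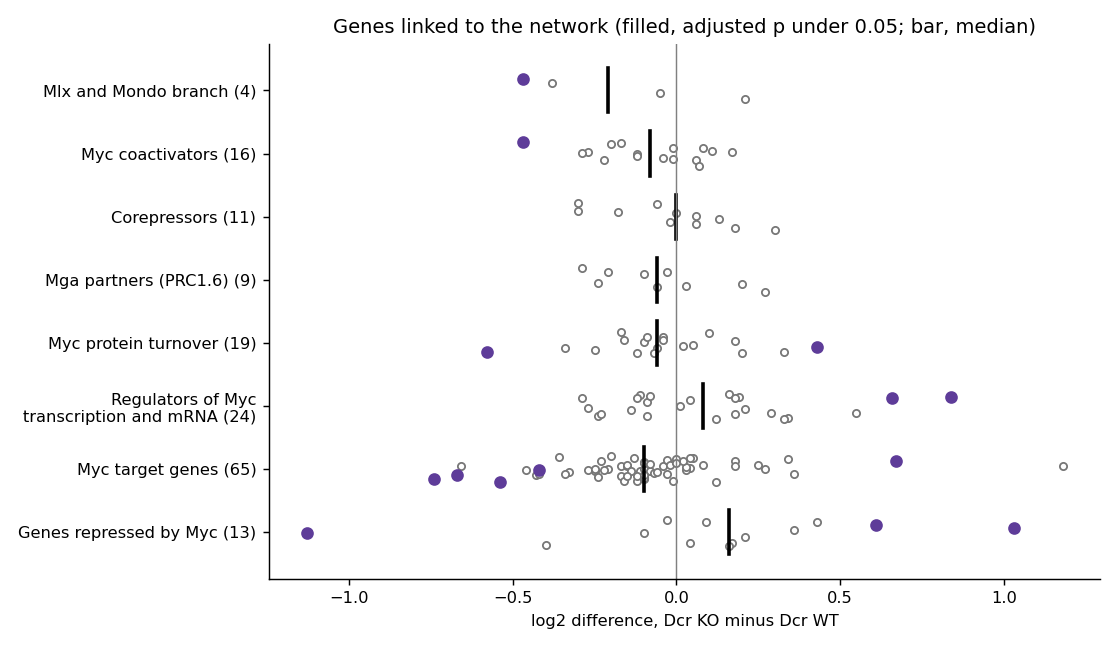
Genes of the 8 linked lists on a common axis of log2 difference between Dcr KO and Dcr WT, positive where Dcr KO is higher (each circle is a tested gene and is filled where limma's adjusted p was under 0.05; vertical bars mark list medians; numbers tested stand in brackets; vertical scatter carries no value). The median of the Myc target genes lies at -0.10 and that of the genes repressed by Myc at 0.16.

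Genes known as Myc targets in ribosome synthesis, nucleotide synthesis and growth had mostly small negative differences. Of 65 tested, 1 was higher and 4 were lower, against 6.91% and 6.42% of all genes, and 60 did not pass. The median log2 difference was -0.10, where all genes tested had -0.02. The difference was positive in 17 of the 65, against 47% of all genes. All Dcr KO values lay below all Dcr WT values in 23 of the 65, against 21.2% of all genes, and above them in 4, against 17.7%. At an unadjusted p under 0.05 by limma there were 16 of the 65, against 32% of all genes. Nip7, a ribosome assembly factor, had 7.56, 7.64 and 7.37 in Dcr KO and 8.04, 8.34 and 8.41 in Dcr WT (log2 difference -0.74, adjusted p = 0.0151 from limma). Exosc5, an exosome subunit (-0.54, adjusted p = 0.0287 from limma), Rrp9, a component of the U3 snoRNP (-0.67, adjusted p = 0.0287), and the folate carrier Slc19a1 (-0.42, adjusted p = 0.0402), the last named after its value was seen, were the others that fell. Exosc5 had 8.26, 8.32 and 8.53 in Dcr KO and 8.91, 8.77 and 9.06 in Dcr WT. For Rrp9 the values were 7.15, 7.50 and 7.68 in Dcr KO and 7.98, 8.18 and 8.18 in Dcr WT. In all 4 the groups did not overlap. Nip7 lost its call without Dcr WT replicate 3 (0.0560) and with its brightest probe set (log2 difference -0.38, adjusted p = 0.0819 from limma). Rrp9 lost its call when Dcr KO replicate 1 or 2 or Dcr WT replicate 2 or 3 was left out (up to 0.0928), Exosc5 for Dcr KO replicate 1 or 2 or Dcr WT replicate 1 or 3 (up to 0.0975), and Slc19a1 whichever array was left out (up to 0.0988). With its brightest probe set Slc19a1 had a log2 difference of -0.77 (adjusted p = 0.0264 from limma).

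Tfb2m, a mitochondrial transcription factor, rose. It was the only target here whose symbol was found in the study's candidate list, which was read from extracted text where a broken symbol could be missed. It had 9.27, 9.25 and 9.39 in Dcr KO and 8.84, 8.25 and 8.80 in Dcr WT (log2 difference 0.67, adjusted p = 0.0368 from limma), and missed the threshold when any one of the Dcr KO arrays or Dcr WT replicate 3 was left out (up to 0.0912). The classical targets Ncl (log2 difference 0.18), Npm1 (0.04) and Odc1 (-0.23), named after their values were seen, did not pass. Over each array, the median deviation of the 65 genes from their own means was -0.07, -0.04 and -0.06 in Dcr KO and 0.06, 0.08 and 0.03 in Dcr WT. Over all genes tested this median was -0.01 on each Dcr KO array and 0.01 on each Dcr WT array. The median of the 65 genes was below 0 on all 3 Dcr KO arrays, and its relation to the level of Myc was not tested. Tfrc, the transferrin receptor gene, also named after its value was seen, had a difference of 1.18 that did not pass, with SDs of 0.93 in Dcr KO and 1.12 in Dcr WT (adjusted p = 0.221 from limma). The candidate list as read has an entry spelled Tfrf, and whether it stands for Tfrc is not known.

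**Figure D4:**
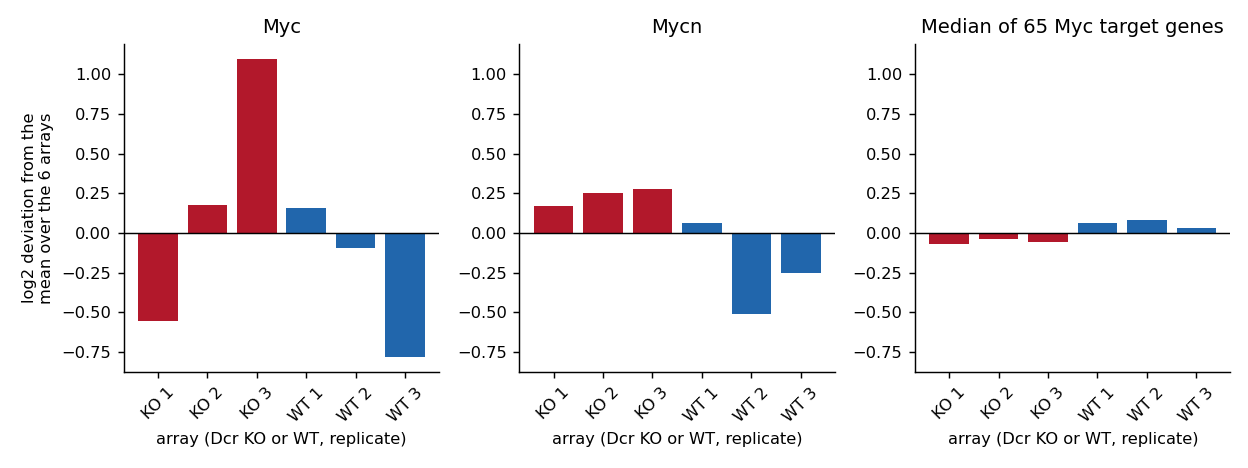
Log2 deviation from the mean over the 6 arrays for Myc, for Mycn and for the median of the 65 Myc target genes, by array (bars, 1 per array; Dcr KO replicates 1 to 3 left of Dcr WT replicates 1 to 3; common vertical axis). Myc differs most among arrays of a group. The median of the targets, which evens out the spread of single genes, stays within -0.07 to 0.08 and is lower on all 3 Dcr KO arrays.

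Genes that Myc represses together with Miz1 or Sp1 moved in both directions. Of 13 tested, 2 were higher and 1 was lower, against 6.91% and 6.42% of all genes, and 10 did not pass. Their median log2 difference was 0.16, where all genes tested had -0.02. Cdkn1a, which encodes the cell cycle inhibitor p21 and is in the study's candidate list, had 8.41, 8.59 and 9.16 in Dcr KO and 7.60, 7.56 and 7.90 in Dcr WT (log2 difference 1.03, adjusted p = 0.0189 from limma). Cdkn2b, which encodes the inhibitor p15 and is not in that list, had 7.99, 8.03 and 8.13 in Dcr KO and 7.23, 7.46 and 7.63 in Dcr WT (log2 difference 0.61, adjusted p = 0.0217 from limma). Ndrg2, named for its similarity to Ndrg1, had 6.12, 5.74 and 4.87 in Dcr KO and 6.61, 6.58 and 6.93 in Dcr WT (log2 difference -1.13, adjusted p = 0.0419 from limma). None of the 3 overlapped between the groups. Ndrg1, the family member known for repression by N-Myc and named here after its value was seen, had 5.49, 5.22 and 5.37 in Dcr KO and 5.99, 5.53 and 5.77 in Dcr WT, a log2 difference of -0.40 that did not pass (adjusted p = 0.0960 from limma). With single arrays left out, Cdkn1a missed the threshold in the absence of Dcr KO replicate 2, Dcr WT replicate 1 or Dcr WT replicate 2 (up to 0.0531), and Cdkn2b without Dcr KO replicate 2 or 3 (up to 0.0691). Ndrg2 missed it without Dcr KO replicate 2, or without Dcr WT replicate 1, 2 or 3 (up to 0.133).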

How the data were processed

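Total RNA of 6 samples was hybridised to oligonucleotide arrays, 1 array per sample. For each array the authors deposited the log2 level of 45037 probe sets. GCRMA 2.20.0, which corrects background and normalizes, and R 2.11.1 are named by the submitters' processing notes. GCRMA can make differences of dim probe sets less certain. A legend of the study describes joint normalization with arrays of long-term Dicer deletion, which were not used here, and does not say whether the deposited values are those.

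Probe sets with 1 symbol in the platform annotation (34945; 932 had several and 9160 none) were averaged per gene on the log2 scale. RefSeq (GRCm38.p6) changed 0 symbols and gave promoter and miRNA sequences. Genes with a mean of at least 4 were fitted in R 4.3.3 with limma 3.58.1 (lmFit, then eBayes), without covariates, adjusted by Benjamini-Hochberg and called at 0.05. No gene set test was run. Python 3.11.15 with numpy 2.4.6 and pandas 2.3.3 prepared the tables, and the fit was tested on simulated data. The number of arrays limits precision.

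The members and lists were chosen with earlier results of these data known. Named genes are all members, up to 4 called genes per list, by smallest adjusted p (or, with none called, the 2 smallest), the 3 genes most correlated with Myc and with Mycn, and Dicer1. Alternatives were the brightest probe set, no x_at or s_at probe sets, no minimum or 5, quantile normalization, median centring, an intensity trend with robust estimation, a replicate block and each array left out.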

Additional observations from a re-analysis of the deposited data

How the results depend on the processing

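Of the members, 1 was called higher (Max); this count was 2 with the brightest probe set (Max and Mxd4), 0 with a replicate block and 0 to 2 with single arrays left out (0 without Dcr KO replicate 2 or 3 or Dcr WT replicate 2 or 3, and 2, Max and Mycn, without Dcr WT replicate 1), and 0 were called lower in every alternative. The log2 difference of Max was 0.64 with the replicate block (adjusted p = 0.0694 from limma) and 0.55 to 0.80 with single arrays left out. That of Mxd4 was 0.73 with its brightest probe set, and that of Mycn 0.33 to 0.61 with single arrays left out. No member besides these 3 passed in the alternatives in which it was fitted, which for Mxd1 was only the fit without a minimum level and for Mycl and Mxd3 did not include the minimum of 5; Mycl and Mxi1, which were not called, changed sign in some. Over all genes, 607 were higher and 564 lower. With the replicate block, 354 were higher and 243 lower, and of linked genes 4 were lower. With single arrays left out, 220 to 465 genes were higher and 137 to 376 lower, and of linked genes 0 to 5 were higher and 0 to 7 lower. Whether the replicate numbers pair the arrays is not stated. Deviations of same-numbered arrays correlated at -0.217, -0.022 and 0.029, and those of differently numbered arrays at -0.227 to 0.314. Deviations from means of 3 arrays cannot settle the question. The share of higher among called genes was 51.8%, and 48.1% and 46.0% after median centring and quantile normalization. With 3 arrays a group, small differences of dim members cannot be resolved.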
